A study of Homo sapiens with 8 samples.

Results

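The 48 genes described here encode the machinery that copies DNA and the regulators that start S phase, among them the MCM helicase subunits, the DNA polymerases, the clamp loader and the E2F factors. They were chosen by name, and a probe counted as belonging to one when the gene name column of the array gave that name. All 48 were present, out of 20554 gene names with a tested probe, with 61 probes in all, and each of the 61 exceeded background on every array. Where a gene had several probes, the brightest one stands for it.

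Cells prepare for S phase in G1 by loading the MCM helicase onto origins, which needs ORC, CDC6 and CDT1. The helicase is then activated by CDC45 and GINS, primase and DNA polymerases copy the strands behind it, and the PCNA clamp, placed by the RFC clamp loader, holds the polymerases on the template. Many of these genes are transcribed by E2F factors at the end of G1, once cyclin-dependent kinases have released E2F from the RB proteins. 5-aza-dC is a nucleoside analog that is built into DNA during S phase, where it traps DNA methyltransferases and lowers methylation.

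Transcripts were profiled on 8 one-color arrays from clones of the human line HCT116, which derives from an epithelial colorectal cancer. The CONT1 and CONT2 clones carried a negative control plasmid, whereas TET1-KD1 and TET1-KD2 stably expressed an artificial miRNA against *TET1*, which encodes an enzyme that oxidizes methylated cytosine. The published text names miTET1-1 and miTET1-2 for these knockdown clones without saying which clone carried which. All 4 are single clones selected with 0.6 mg/ml G418, and each was analyzed untreated and after 72 h with 1 µM 5-aza-dC, so that every group has n = 2 and its replicates are different clones. A separate treatment field in the labels conflicts with the array titles, since it gives mock treatment for all control arrays and 5-aza-dC for all knockdown arrays, and the titles were followed here. 

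Levels are log2 signals after each array was scaled to its 75th percentile, and a difference of 1 is a 2-fold change. The scaling percentile ranged from 395.5 to 623.7 intensity units. Both treated control arrays lay on a second slide that was scanned 230 days after the other 6 arrays. Before scaling, spike-in controls differed there by -0.021 to -1.004 on the log2 scale, and the brightest by -0.038. The largest offsets were those of spike-ins of middle brightness, which read 7.91 and 9.36 on the first slide. In the control clones 5-aza-dC and slide therefore cannot be told apart, while the 4 arrays of the knockdown clones shared a slide. On that slide the treated arrays stood in row 2 and the untreated ones in row 1, so treatment and row cannot be told apart there. Of the epithelial markers, *EPCAM*, *CDH1*, *KRT8*, *KRT18* and *KRT19* were above background on all 8 arrays and *VIL1* on 2. Among markers of other cells, *COL3A1* (fibroblast) was above background on none of the arrays and *CD3E* (T cell) on 1. The brightest probes of *PTPRC* (leukocyte), *CD68* (macrophage) and *COL1A1* (fibroblast) were above background on all 8 arrays. Those of *VWF* and *PECAM1* (endothelial) were above background on 7 and 3. The brightest probes of *PTPRC*, *CD68*, *COL1A1*, *PECAM1* and *VWF* were called higher with 5-aza-dC in the control clones (limma adjusted p below 0.05). Dimmer probes of *PTPRC* and *VWF* moved in both directions there. In the knockdown clones only that of *VWF* among these brightest probes was called higher. Those of *CD68* and *COL1A1* were also higher in both treated knockdown clones. The part of these markers in the results below was not tested. The brightest *TET1* probe read 9.70 and 9.75 in untreated CONT1 and CONT2, and 8.65 and 9.41 in untreated TET1-KD1 and TET1-KD2. Its difference between untreated knockdown and control clones was -0.69 ± 0.30 (log2, SE; limma adjusted p = 0.63). Dimmer *TET1* probes gave -0.98 ± 0.42 (adjusted p = 0.63) and, with signal above background on only 2 arrays, -2.14 ± 0.34 (adjusted p = 0.628). After 5-aza-dC the differences were -0.405, -1.26 and -0.46 in the same order of probes (limma adjusted p = 0.315, 0.0598 and 0.464).

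Promoters of the 48 genes are shown first, because E2F factors recognize a short sequence close to the start of many S-phase genes. RefSeq promoter windows, running from 250 bases before to 50 bases after a start on GRCh38.p14, were found for 42 of the 48 genes, with 55 windows between them, and 6 genes had none. The E2F site was searched on both strands as TTTCCCGC, TTTCGCGC, TTTGCCGC and TTTGGCGC, and was present in 23 of the 55 windows (41.8%) compared with 3.31% of all 35116 windows. For each role except single-strand binding and strand joining, the gene with the most negative difference in treated control clones among those with a whole site in the 100 bases before a start is printed, 5′ to 3′ on the strand of the gene and ending at the base before the start, with E2F sites on either strand in capitals.
MCM7, chr7:100101398-100101497, minus strand: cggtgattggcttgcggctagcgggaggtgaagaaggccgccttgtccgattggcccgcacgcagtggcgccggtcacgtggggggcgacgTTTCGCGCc
GINS2, chr16:85688955-85689054, minus strand: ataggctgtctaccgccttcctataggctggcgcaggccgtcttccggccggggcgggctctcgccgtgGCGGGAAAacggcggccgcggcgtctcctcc
PCNA, chr20:5126623-5126722, minus strand: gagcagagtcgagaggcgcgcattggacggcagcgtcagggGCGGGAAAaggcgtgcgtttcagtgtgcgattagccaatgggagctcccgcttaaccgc
POLE, chr12:132687343-132687442, minus strand: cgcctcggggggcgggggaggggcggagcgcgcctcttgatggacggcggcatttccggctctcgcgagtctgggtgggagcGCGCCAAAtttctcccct
DUT, chr15:48332097-48332196, plus strand: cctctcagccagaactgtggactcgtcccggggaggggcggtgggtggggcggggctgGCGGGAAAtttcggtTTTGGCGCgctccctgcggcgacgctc
E2F2, chr1:23531234-23531333, minus strand: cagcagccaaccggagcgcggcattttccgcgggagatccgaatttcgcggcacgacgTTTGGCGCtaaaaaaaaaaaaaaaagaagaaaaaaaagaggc
DTL, chr1:212035648-212035747, plus strand: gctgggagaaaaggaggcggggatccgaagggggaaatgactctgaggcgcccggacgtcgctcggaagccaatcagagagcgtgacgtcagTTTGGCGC

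DUT held 2 sites in the stretch shown, one on each strand, and the other 6 genes held 1. Other words were searched in the same way. The CCAAT box (CCAAT) was found in 29 of the 55 windows (52.7%, against 34.6% of all windows), the GC box (GGGCGG) in 40 (72.7%, against 45%), and the CHR element (TTTGAA), known from G2/M genes, in 2 (3.64%, against 15.2%). Of the 31 E2F sites in these windows, 3 overlapped a GC box. The 23 genes with an E2F site had a median log2 difference with 5-aza-dC of -0.69 (control clones) and -0.72 (knockdown clones), and the 19 genes with a window but no site had -0.57 and -0.44. A matching word describes the sequence only. Windows of a gene with several starts were counted separately, and their overlap was not measured.

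Signals of most of the S-phase genes were lower after 5-aza-dC in each of the 4 clones. In the control clones 28 of the 48 genes fell, among them all 7 of its polymerase and primase genes, and none rose (limma, Benjamini-Hochberg adjusted p below 0.05). The largest falls were of *DUT* (3.15-fold), *FEN1* (2.82-fold), *POLE* (2.72-fold), *DTL* (2.70-fold), *POLE2* (2.64-fold) and *RRM1* (2.54-fold). Over all 27287 tested probes, 24.5% were called lower and 21.7% higher. The median log2 difference was -0.56 over the 48 genes and -0.08 over all probes. In the knockdown clones no gene passed the threshold, where 0.268% of all probes were called lower and 5.91% higher, although all 48 were lower in both TET1-KD1 and TET1-KD2. The median there was -0.57, against -0.07 over all probes.

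Within each clone, the median of the treated minus untreated signal over the 48 genes was -0.46 (CONT1) and -0.70 (CONT2) in controls, and -0.51 (TET1-KD1) and -0.66 (TET1-KD2) in knockdowns. Medians over all probes lay between -0.08 and -0.06. The signal was below that of the same untreated clone for 42 genes in CONT1 (53.7% of all probes), 47 in CONT2 (53.6%) and 48 in TET1-KD1 (55.3%) as well as TET1-KD2 (55%). A total of 42 genes were lower in all 4 clones, as were 29.4% of all probes, and none was higher in all 4. Since whole cultures were measured, fewer cells in S phase and less RNA of these genes per cell cannot be told apart.

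**Figure D1:**
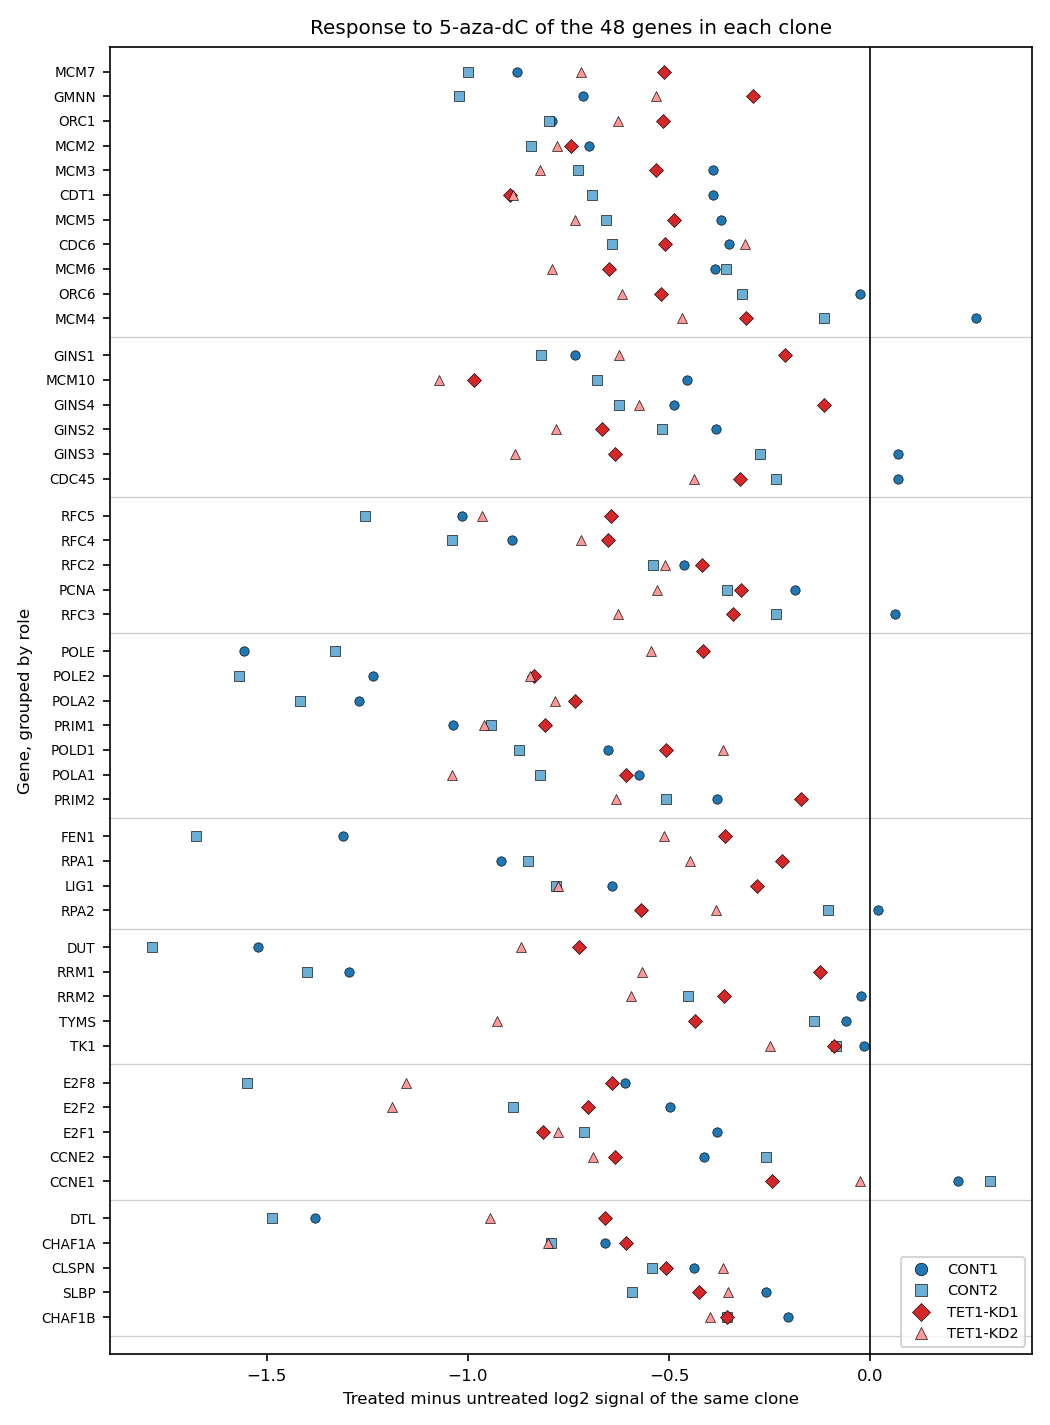
Treated minus untreated log2 signal (x axis) of each of the 48 genes (rows, grouped by role and sorted within a role by the fall in the control clones), with 1 point for each clone and no error bar. Nearly all points lie left of 0, all 48 do so in both knockdown clones, and *CCNE1* lies right of 0 in both control clones.

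The first role is origin licensing, with 11 genes, of which 5 fell in the control clones (*MCM7*, *GMNN*, *ORC1*, *MCM2* and *MCM3*). *MCM7*, a helicase subunit, read 16.00 and 16.16 in untreated CONT1 and CONT2 and 15.12 and 15.16 after treatment. It read 16.29 and 16.28 in untreated TET1-KD1 and TET1-KD2 and 15.78 and 15.56 after treatment. Every treated array lay below every untreated array, and the log2 difference was -0.94 ± 0.13 (SE, limma adjusted p = 0.0106) in the control clones and -0.62 ± 0.19 (adjusted p = 0.183) in the knockdown clones. *CDT1*, which brings the helicase to origins, had the largest difference of this role in the knockdown clones, with 14.01 and 13.74 untreated and 13.11 and 12.85 after treatment. In the control clones *CDT1* read 13.36 and 13.70 untreated and 12.97 and 13.00 after treatment. The groups did not overlap in either kind of clone, but neither difference passed (-0.89 ± 0.22, adjusted p = 0.123, and -0.54 ± 0.17, adjusted p = 0.0628). The other MCM subunits gave -0.77 (*MCM2*), -0.56 (*MCM3*), 0.07 (*MCM4*), -0.52 (*MCM5*) and -0.37 (*MCM6*) in the control clones. The corresponding values of the knockdown clones were -0.76, -0.68, -0.39, -0.61 and -0.72 in that order. *MCM4* was thus the helicase subunit with no lower mean in the control clones, where CONT1 was higher and CONT2 lower after treatment. Among the loading factors, *ORC1* gave -0.80 in the control clones and *ORC6* -0.17, *CDC6* gave -0.50, and *GMNN*, the inhibitor of CDT1, gave -0.87.

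Helicase activation was represented by 6 genes, of which *GINS1*, *MCM10* and *GINS4* fell in the control clones. *GINS1* read 12.35 and 12.41 in untreated control clones and 11.61 and 11.59 after treatment, a difference of -0.78 ± 0.12 (limma adjusted p = 0.0131). The knockdown clones read 12.40 and 12.46 untreated and 12.19 and 11.84 after treatment. Its groups were apart in both kinds of clone. *MCM10*, a factor needed for origin firing, had the largest difference of all 48 genes in the knockdown clones. It read 10.26 and 9.61 in untreated TET1-KD1 and TET1-KD2 and 9.28 and 8.53 after treatment, so both clones were lower by a similar amount from different levels. The difference was -1.03 ± 0.38 (limma adjusted p = 0.237), and -1.03 with the clone as a block (adjusted p = 0.045). In the control clones *MCM10* read 9.29 and 9.53 untreated and 8.83 and 8.85 after treatment (-0.57 ± 0.15, adjusted p = 0.0423). *GINS4* gave -0.56 in the control clones, *GINS2* -0.45, *GINS3* -0.10 and *CDC45* -0.08, and all 4 were between -0.35 and -0.76 in the knockdown clones.

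The sliding clamp and its loader gave 3 falls out of 5 genes in the control clones, those of the loader subunits *RFC5*, *RFC4* and *RFC2*. *RFC5* read 13.40 and 13.64 untreated and 12.38 on both arrays after treatment (-1.14 ± 0.14, limma adjusted p = 0.009). Corresponding signals in the knockdown clones were 13.44 and 13.52 untreated and 12.79 and 12.55 after treatment (-0.80 ± 0.20, adjusted p = 0.121). All treated arrays lay below all untreated arrays. *RFC4* gave -0.97 and *RFC2* -0.50 in the control clones. The clamp itself, *PCNA*, gave -0.27 in the control clones (adjusted p = 0.246) and -0.43 in the knockdown clones, and *RFC3* gave -0.09 and -0.48.

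All 7 polymerase and primase genes fell in the control clones, with log2 differences from -1.44 to -0.44 and a median of -0.99. *POLE*, the catalytic subunit of the leading strand polymerase, read 8.95 and 9.05 untreated and 7.39 and 7.72 after treatment (-1.44 ± 0.17, limma adjusted p = 0.00749). The knockdown clones read 8.93 and 9.01 untreated and 8.51 and 8.46 after treatment. The treated control arrays lay lowest and the groups did not overlap in either kind of clone. A second, dimmer *POLE* probe gave 0.08 with 5-aza-dC in the control and -0.59 in the knockdown clones, so the fall in the control clones rests on the brighter probe. *POLE2*, the second subunit of that enzyme, read 9.94 and 10.34 in untreated control clones and 8.70 and 8.77 after treatment, and 10.90 and 10.51 in untreated knockdown clones and 10.07 and 9.67 after treatment. Its difference was -1.40 ± 0.19 in the control clones (adjusted p = 0.0096) and -0.84 ± 0.26 in the knockdown clones (adjusted p = 0.183). *PRIM1*, the catalytic primase subunit, read 11.25 and 11.45 in untreated control clones and 10.21 and 10.51 after treatment. Signals in the knockdown clones were 11.44 and 11.70 untreated and 10.63 and 10.74 after treatment, the largest difference of this role there (-0.88 ± 0.20, adjusted p = 0.105). The treated arrays of both kinds were thus close together for *PRIM1* and apart for *POLE*. The remaining subunits gave -1.35 (*POLA2*), -0.76 (*POLD1*), -0.70 (*POLA1*) and -0.44 (*PRIM2*) in the control clones.

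Single-strand binding and strand joining gave 3 falls out of 4 in the control clones, of *FEN1*, *RPA1* and *LIG1*. *FEN1*, the nuclease that trims Okazaki fragments, read 11.43 and 11.61 in untreated control clones and 10.12 and 9.94 after treatment (-1.49 ± 0.15, limma adjusted p = 0.00547). Its single probe lies at chr11:61564029-61564087 on hg19, the build of the probe positions in the files. TET1-KD1 and TET1-KD2 read 11.59 and 11.56 untreated and 11.23 and 11.05 after treatment (-0.44 ± 0.19, adjusted p = 0.285). The 4 untreated arrays were alike, and the treated control arrays lay about 1 log2 unit below the treated knockdown arrays. *LIG1*, the ligase of the same step, read 12.30 and 12.45 in untreated control clones and 11.66 on both arrays after treatment, and 12.14 and 12.59 in untreated knockdown clones and 11.86 and 11.81 after treatment. Its difference was -0.71 for the control clones, where it passed, and -0.53 for the knockdown clones, where it did not. *RPA2*, a subunit of the protein that coats single strands, read 12.46 and 12.64 in untreated control clones and 12.48 and 12.54 after treatment, and the groups overlapped. TET1-KD1 and TET1-KD2 read 12.78 and 12.73 untreated and 12.21 and 12.35 after treatment. *RPA1*, the large subunit, gave -0.88 and -0.33 in the control and knockdown clones.

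Nucleotide supply divided in the control clones, where *DUT* and *RRM1* fell and *TYMS*, *RRM2* and *TK1* gave -0.10, -0.24 and -0.05, none of which passed. *DUT*, the enzyme that removes dUTP, read 14.36 and 14.51 in untreated control clones and 12.84 and 12.73 after treatment, the largest difference of the 48 genes (-1.65 ± 0.14, limma adjusted p = 0.00369). The knockdown clones read 14.73 and 14.55 untreated and 14.01 and 13.68 after treatment (-0.80 ± 0.22, adjusted p = 0.15). Its groups did not overlap in either kind of clone, and its second probe gave -1.10 and -0.82. *RRM1*, the large subunit of ribonucleotide reductase, gave -1.35 ± 0.13 in the control clones (adjusted p = 0.00533), whereas in the knockdown clones TET1-KD1 changed from 13.53 to 13.41 and TET1-KD2 from 13.46 to 12.89. *RRM2*, the small subunit of the same enzyme, read 12.01 and 12.37 in untreated control clones and 11.99 and 11.92 after treatment. In the knockdown clones *RRM2* read 12.95 and 12.39 untreated and 12.58 and 11.80 after treatment. The fall of *RRM1* in the control clones was therefore not matched by a called fall of *RRM2*. *TYMS*, which makes dTMP, gave -0.68 ± 0.22 in the knockdown clones (adjusted p = 0.2).

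**Figure D2:**
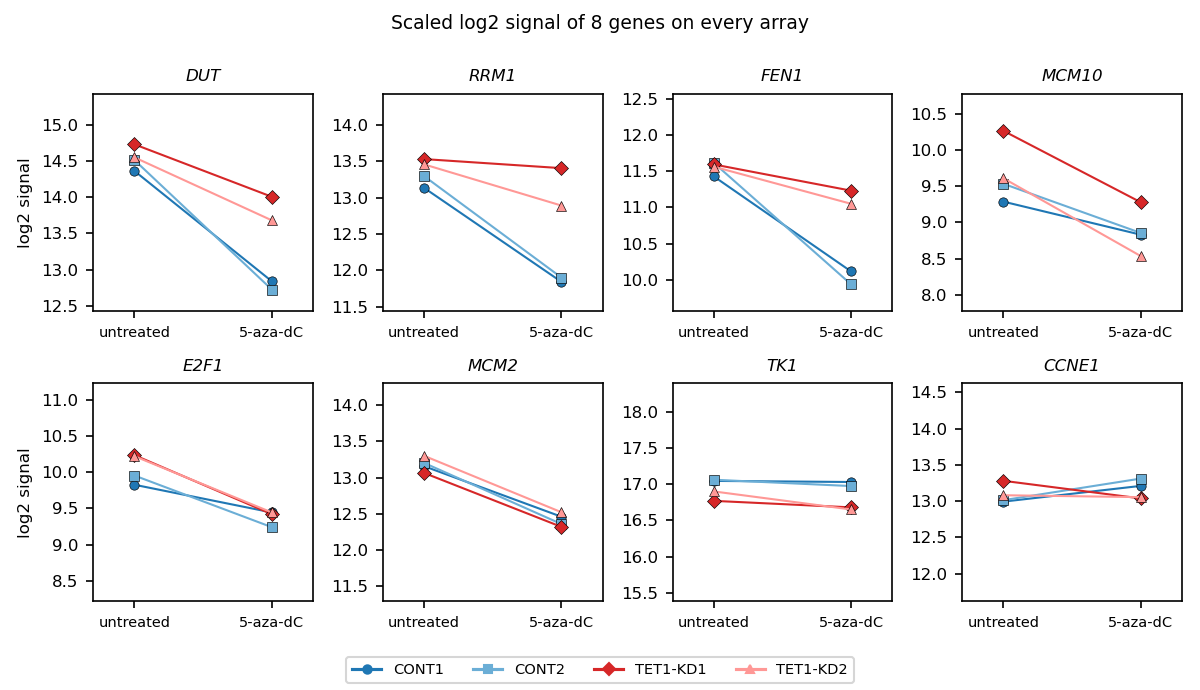
Scaled log2 signal (y axis, each panel spanning the same range of 3) of 8 genes in each clone, untreated and after 5-aza-dC, with a line joining the 2 arrays of a clone. *DUT*, *RRM1* and *FEN1* end lower in the control clones, and *E2F1* and *MCM2* end at similar levels in both kinds. *MCM10* ends above the control clones in TET1-KD1 and below them in TET1-KD2, and *TK1* and *CCNE1* show the smallest differences of the 8.

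Of the 5 G1/S regulators, the transcription factors *E2F8*, *E2F2* and *E2F1* fell in the control clones, and neither cyclin E gene passed. *E2F8*, a repressor of E2F target genes, read 8.75 and 9.09 untreated and 8.14 and 7.54 after treatment (-1.08 ± 0.27, limma adjusted p = 0.0394). TET1-KD1 and TET1-KD2 read 9.71 and 9.32 untreated and 9.07 and 8.17 after treatment (-0.90 ± 0.38, adjusted p = 0.279). The spread between clones was wide after treatment in both kinds. *E2F2*, an activator, read 12.27 and 12.51 in untreated control clones and 11.77 and 11.62 after treatment, and 12.91 and 12.70 in untreated knockdown clones and 12.20 and 11.51 after treatment. *E2F1*, the founding activator, had the smallest adjusted p of the 48 genes in the knockdown clones (-0.80 ± 0.18, adjusted p = 0.0986). *CCNE1*, the cyclin that drives CDK2 at the start of S phase, was higher in both treated control clones (0.26 ± 0.12, adjusted p = 0.159) and lower in both treated knockdown clones (-0.13 ± 0.19, adjusted p = 0.723), and its paralog *CCNE2* gave -0.34 and -0.66.

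Among the 5 genes of chromatin assembly, histone mRNA and checkpoint, *DTL* and *CHAF1A* fell in the control clones. *DTL*, which targets CDT1 for destruction in S phase, read 10.75 and 11.04 untreated and 9.37 and 9.55 after treatment (-1.43 ± 0.17, limma adjusted p = 0.00752). The knockdown clones read 11.42 and 11.04 untreated and 10.76 and 10.09 after treatment (-0.80 ± 0.32, adjusted p = 0.257). *CLSPN*, a checkpoint mediator, read 7.61 and 7.90 in untreated control clones and 7.17 and 7.36 after treatment, and 8.29 and 7.89 in untreated knockdown clones and 7.78 and 7.53 after treatment. Both were lower in every treated clone. *CHAF1A*, the large subunit of the histone chaperone CAF-1, gave -0.73 and -0.70 in the control and knockdown clones. *CHAF1B*, its middle subunit, gave -0.28 and -0.38, and *SLBP*, which binds histone mRNA, gave -0.43 and -0.39.

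The count in the control clones was lower when an array was left out, with 20 genes called without treated CONT1, 16 without treated CONT2, 8 without untreated CONT1 and 6 without untreated CONT2, all of them lower after treatment. The share of all probes called lower was smaller as well, at 20.7%, 19.4%, 7.03% and 7.27% in that order. With a minimum change of 2-fold the count was 9 of 48 genes (18.8%), and 13.4% of all probes. Of the 11 genes with several probes, *POLE* had the widest spread of differences there (1.52), and the dimmer *MCM5* probe was called (-1.22, limma adjusted p = 0.00647) where the brighter one was not (-0.52, adjusted p = 0.0521). The response of all probes in the control clones varied with their base composition. Probes with a GC content of 40% or less had a median of 0.13 and those above 50% a median of -0.51. The 21 and 7 genes of the same ranges had medians of -0.54 and -0.77. After subtraction of this trend 35 of the 48 genes were called lower, while the share of all probes called lower went from 24.5% to 30.4%. The subtraction also lowered the median of all probes, as given in the closing section, so the counts before and after it differ in centering too.

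In the knockdown clones the count of 0 came with 20 genes at an unadjusted p below 0.05 (41.7%, against 21% of all probes). Both treated arrays lay below both untreated arrays for 44 of the 48 genes, as for 30.8% of all probes, and the exceptions were *CDC6*, *POLD1*, *RRM2* and *CHAF1B*. In the control clones the same was true of 40 genes and of 42.8% of all probes. Counts in the knockdown clones depended on how the spread was estimated and, with the clone as a block, on the GC correction. A fit of all 8 arrays called 11 genes lower (22.9%, against 2.9% of all probes), and a fit of the 6 arrays of the first slide called *E2F1* and *PRIM1* (4.17%, against 1.44%). The clone as a block called *MCM10* alone (2.08%, against 0.828%), and the block after subtraction of the GC trend called 18 (37.5%, against 4.61%). Subtraction of the GC trend without the block called 0 (0.931% of all probes called lower). That subtraction also lowered the median of all probes, as given in the closing section.

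**Figure D3:**
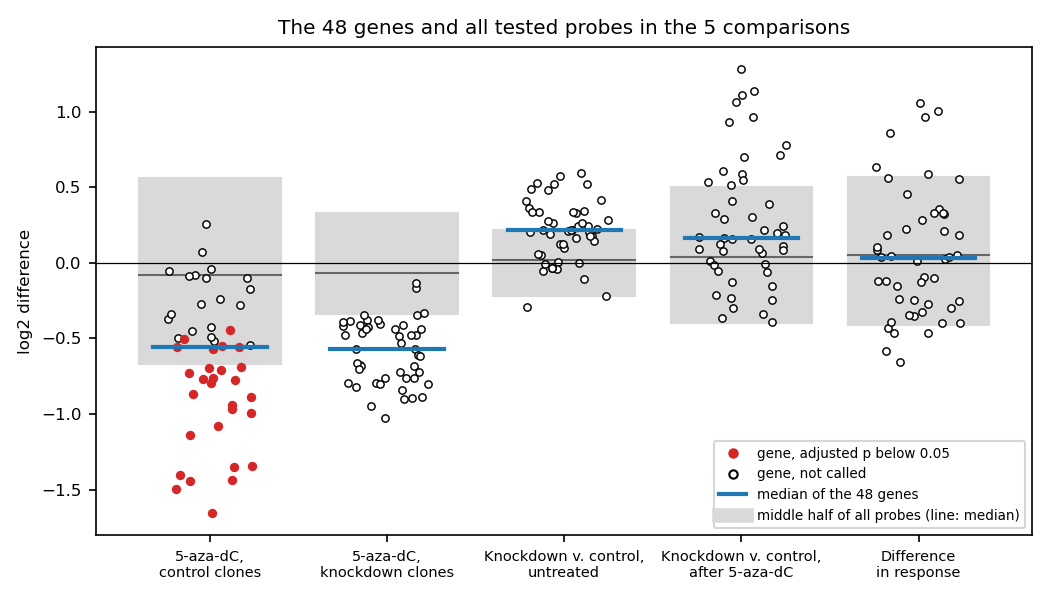
Log2 difference (y axis) of the 48 genes in 5 comparisons, with filled points for genes at a limma adjusted p below 0.05, blue lines for their median and gray boxes for the middle 50% of all 27287 probes. The medians are -0.56 and -0.57 in the 2 treatment comparisons, and called genes appear only in the control clones.

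Before treatment no gene differed between knockdown and control clones, as was the case for all tested probes (0% called). With limma 1 of the 48 genes, *RFC3*, had an unadjusted p below 0.05 (7.52% of all probes), and no alternative called any. Point estimates were mostly small and positive, with a median of 0.22 compared with 0.02 over all probes. Both knockdown clones were above both control clones for 29 genes (23.6% of all probes), including all 5 G1/S regulators and 10 of the 11 licensing genes, and below them for *TK1* alone (21.2% of all probes). The largest differences were 0.59 ± 0.23 for *E2F8*, 0.57 ± 0.24 for *POLE2*, 0.53 ± 0.28 for *MCM10*, 0.52 ± 0.24 for *CCNE2*, 0.52 ± 0.30 for *CDC6*, 0.49 ± 0.16 for *RFC3* and 0.48 ± 0.27 for *RRM2*, all with an adjusted p from 0.63 to 0.631. *CDC6* read 6.70 and 6.64 in the control clones and 7.56 and 6.82 in the knockdown clones, so that most of its difference came from TET1-KD1. Untreated *RFC3* read 9.60 and 9.77 in the control clones and 10.16 and 10.19 in the knockdown clones, where both clones were alike. After treatment *RFC3* read 9.66 and 9.54 in the control clones and 9.81 and 9.56 in the knockdown clones. The 95% intervals of these untreated differences reached at most 1.32 (*CDC6*) and -1.15 (*CHAF1B*), and 40 of 48 lay within 1 log2 unit of 0. Both untreated knockdown clones also lay above both control clones for 16 of 30 further replication factors and 16 of 30 mitosis genes (53.3% each). These lists are described below, and 2 genes of each (6.67%) were lower in both knockdown clones.

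After 5-aza-dC no gene passed the comparison of knockdown with control clones either, in which 3.88% of all probes were called higher and 1.51% lower. The median was 0.17, compared with 0.04, and 11 of the 48 genes (22.9%) had an unadjusted p below 0.05, a smaller share than the 30.5% of all probes. The highest were *RRM1* (1.28 ± 0.24, limma adjusted p = 0.0608), *POLE2* (1.14 ± 0.22, adjusted p = 0.0616), *FEN1* (1.11 ± 0.19, adjusted p = 0.0534) and *DUT* (1.06 ± 0.21, adjusted p = 0.0626). These 4 genes and *POLE* were called higher in the knockdown clones in the fit of all 8 arrays (10.4% of the 48 genes, against 11.9% of all probes). In the fit of the treated arrays alone, the dimmer *POLE* probe gave -0.255 and the dimmer *DUT* probe 0.49. This comparison sets arrays of one slide against those of the other.

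The response itself was compared between the kinds of clone with all 8 arrays. No gene passed, against 5.58% of all probes, and 5 genes (10.4%) had an unadjusted p below 0.05, compared with 24.7% of all probes. The difference in response, knockdown minus control, was above 0 for 26 genes and below 0 for 22, with a median of 0.03 and 0.05 over all probes. *FEN1* came closest, with 1.06 ± 0.22 (95% interval 0.51 to 1.60, limma adjusted p = 0.0513), and passed under 7 of 15 alternatives that kept all arrays. *RRM1* gave 1.00 ± 0.29 (adjusted p = 0.0996), *POLE* 0.96 ± 0.23 (adjusted p = 0.0695) and *DUT* 0.86 ± 0.25 (adjusted p = 0.103). The dimmer *POLE* probe gave -0.67 instead (limma adjusted p = 0.198), and the dimmer *DUT* probe gave 0.27 (adjusted p = 0.546). At the other end *GINS3* gave -0.66 and *TYMS* -0.58, which were lower in the treated knockdown clones. Across the 48 genes the responses in the 2 kinds of clone, which share no array, had a Pearson r of 0.37 and a Spearman rho of 0.38, and across all 27287 probes 0.81 and 0.57. These are descriptions over genes measured on the same arrays, and genes are not independent replicates.

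**Figure D4:**
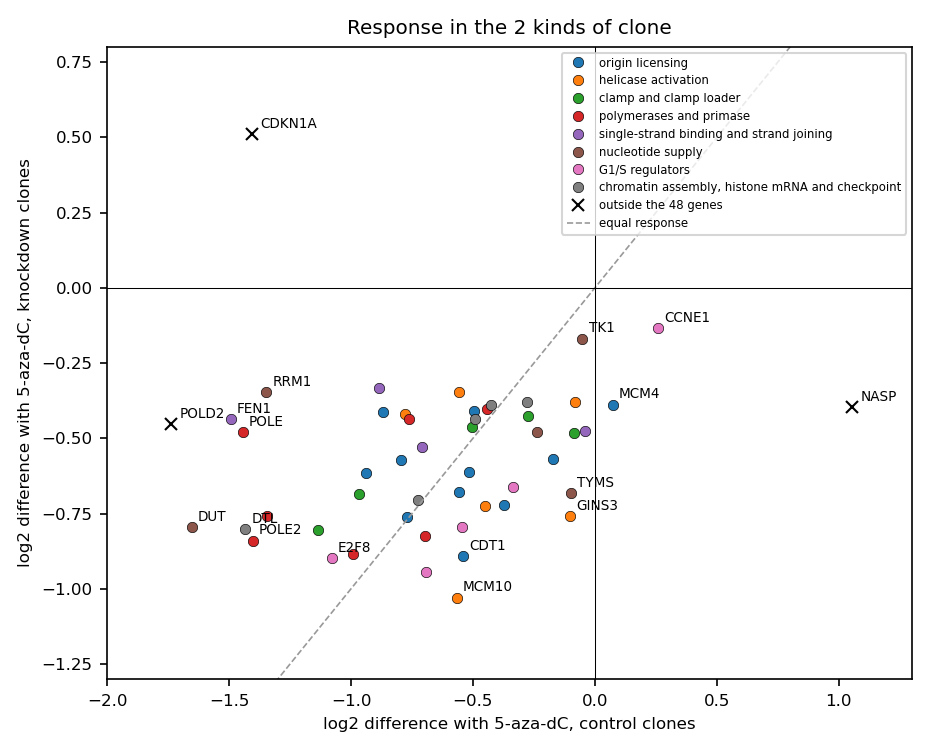
Log2 difference with 5-aza-dC in the control clones (x axis) and in the knockdown clones (y axis) of the 48 genes, colored by role, with 3 genes of other lists as crosses. All 48 genes lie below 0 on the y axis, and *DUT*, *FEN1*, *RRM1* and *POLE* lie furthest to the left of the dashed line of equal response among them. Each gene is drawn by its brightest probe.

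Other genes of the pathway were read from lists of further replication factors, G1 cyclins and kinases, E2F and DP partners and G1/S inhibitors, of which 56 genes had a tested probe. In the control clones 16 fell and 4 rose, with a median of -0.17, and in the knockdown clones 1 rose and none fell, with a median of -0.29. Of all probes, 24.5% were called lower and 21.7% higher in the control clones, and 0.268% and 5.91% in the knockdown clones. Of 30 further replication factors, 8 fell and 1 rose in the control clones. Small subunits of the polymerases gave 0.94 (*POLD4*, limma adjusted p = 0.0529), 0.44 (*POLE4*) and 0.12 (*POLE3*) there, none of which passed. The largest fall was of *POLD2*, a subunit of polymerase delta (-1.74 ± 0.12, limma adjusted p = 0.00256), and the rise was of *NASP*, a histone chaperone (1.05 ± 0.14, adjusted p = 0.00898), for which the dimmest of 3 probes gave -1.09 instead. Among 9 G1 cyclins, kinases and activators, 4 fell, led by the ubiquitin ligase subunit *SKP2* (-1.68 ± 0.24, adjusted p = 0.0112), and *CDK6* rose (1.15 ± 0.27, adjusted p = 0.0327). Of 7 E2F and DP partners, *E2F4* (-1.43 ± 0.12, adjusted p = 0.00382) and *TFDP1* fell.

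G1/S inhibitors moved both ways, at shares close to those of all probes. Of 10 measured, 2 fell and 2 rose in the control clones, where 24.5% and 21.7% of all probes did. *CDKN2D*, an inhibitor of CDK4 and CDK6, rose in both kinds of clone. It read 12.14 and 12.01 in untreated control clones and 14.10 and 14.19 after treatment (2.07 ± 0.13, limma adjusted p = 0.00213), and 11.73 and 11.94 in untreated knockdown clones and 13.41 and 13.53 after treatment (1.64 ± 0.19, adjusted p = 0.0194). *CDKN1A*, the p53-induced inhibitor of CDK2, fell in the control clones from 10.31 and 10.11 to 8.76 and 8.84 (-1.41 ± 0.14, adjusted p = 0.00544), whereas in the knockdown clones it went from 10.11 and 10.20 to 10.89 and 10.44 (0.51 ± 0.23, adjusted p = 0.309). For comparison, 30 mitosis genes gave 9 falls and 1 rise in the control clones (24.5% and 21.7% of all probes) and none in the knockdown clones, with medians of -0.23 and -0.18. The number of these genes whose 2 treated knockdown arrays lay below both untreated arrays was 13 of 30, whereas it was 44 of 48 for the S-phase genes. For the further replication factors it was 20 of 30, with a median of -0.40 in the knockdown clones. The share of all probes was 30.8%. The difference between the lists was not tested.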

How the data were processed

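Arrays were SurePrint G3 Human GE 8x60K one-color arrays of 4 HCT116 clones, each untreated and after 5-aza-dC. The authors deposited spot intensity values as Feature Extraction 10.7.3.1 wrote them, with background subtracted and without scaling between arrays. A deposited value table held the same intensity values. The methods name GeneSpring GX and t tests with Benjamini-Hochberg correction, and the normalization is not given in the sources used here.

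Processed intensities of 58717 non-control spots were scaled by array to the 75th percentile, floored at 1 and put on the log2 scale. Spots with an outlier flag were dropped, and replicate spots of a probe were averaged. Of 50599 probes, 27287 were tested because at least 1 group had signal above background on its 2 arrays. Differences were tested with limma 3.58.1 in R 4.3.3 and adjusted over all tested probes by the Benjamini-Hochberg method. Each treatment or clone comparison used its 4 arrays, and the difference in response used all 8. Probe GC content came from the 60-base probe sequences in the files. Promoter sequences came from RefSeq (GRCh38.p14). With 2 arrays per group the number of arrays limits the precision, and p-values measure the spread between clones.

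Same-numbered arrays come from the same clone, as the labels give it, so the replicate numbers pair treated and untreated arrays. Deviations of paired arrays correlated with r = 0.198 in the control and 0.476 in the knockdown clones over all tested probes.

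The 48 genes, their roles and the other gene lists were chosen with earlier results of these data known. All 48 are named. One marker of another cell type is not reported here. Values on every array are given, in each role, for the gene with the largest difference in each treatment comparison and between untreated clones. Other lists are given by counts, with the called gene of the largest rise and fall. *RRM1* in the knockdown clones, *CCNE1*, *E2F1*, *MCM2*, *POLD4*, *POLE3* and *POLE4* were singled out after their values were seen.

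In simulated data of 27287 probes, a 2-unit log2 change was recovered for 33% of 200 changed probes in the comparison of control clones and 0% of 150 in that of knockdown clones, and a 4-unit change for 95.5% and 94.7%. Few simulated probes were changed, whereas 24.5% of all probes were called lower and 21.7% higher in the control clones of the data. The recovery therefore does not measure how many changes of that size these comparisons miss. Plots were drawn with matplotlib 3.10.9. The alternatives covered background correction, scaling, filters, the floor, flagged spots, the clone as a block, the arrays in the fit, the variance, a minimum change, other probes of a gene, probe GC content, spike-ins, the deposited value table and leaving out each array.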

Additional observations from a re-analysis of the deposited data

Results flagged for a closer look

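*CCNE1* moved in opposite directions in the kinds of clone, higher in both treated control clones and lower in both treated knockdown clones, with a difference in response of -0.39 (limma adjusted p = 0.296). The opposite directions themselves were not tested further. Outside the 48 genes, the difference in response passed for 3 genes of the pathway lists. It was 1.92 ± 0.27 for *CDKN1A* (limma adjusted p = 0.0185), 1.28 ± 0.23 for *POLD2* (adjusted p = 0.0333) and -1.45 ± 0.20 for *NASP* (adjusted p = 0.0179). The other *NASP* probes gave -1.40 and -0.19 (adjusted p = 0.886). In each of these comparisons the treated control arrays lay on the second slide, and the part of the slide was not tested.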

How the results depend on the processing

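All called genes were lower after 5-aza-dC under every alternative run, and no called difference changed its sign. The count of 28 in the control clones stayed within 1.5 times under 14 of 16 alternatives that kept all arrays. It was 9 with a minimum change of 2-fold and 9 with the methods' t-test (29 at an unadjusted p below 0.05), against 13.4% and 7.37% of all probes, and 6 to 20 when 1 array was left out, when 7.03% to 20.7% of all probes were called lower. With the clone as a replicate block it was 21, against 23.9% of all probes called lower. For the 29 genes at an unadjusted p in the t-test, the share of all probes is not given here, so that count has no comparison. The count in the knockdown clones was 0 except with all 8 arrays in 1 fit (11), the replicate block (1), the replicate block with the GC trend subtracted (18) and, an alternative chosen after seeing the data, the 6 arrays of slide 1 in 1 fit (2). The shares of all probes called lower in these fits were 2.9%, 0.828%, 4.61% and 1.44%. It was 0 whichever array was left out, and the median of the 48 genes stayed between -0.81 and -0.45 in all fits that kept all arrays. No alternative called a gene between untreated clones. After 5-aza-dC the comparison of clones called 1 gene with the percentile over detected probes, 5 with the filter for all 8 arrays, 5 with all 8 arrays in 1 fit, 4 with normexp correction and 4 with an offset of 50, all higher in the knockdown clones. Of all probes, 4.2%, 5.94%, 11.9%, 4.19% and 4.38% were called higher in these fits, in the same order. The difference in response called 2 genes (*FEN1* and *POLE*) with the percentile over detected probes and 1 (*FEN1*) with the filter for all 8 arrays, the mean of a gene's probes, normexp correction, an offset of 50, quantile normalization or the spike-in line, where 1.59% to 4.97% of all probes were called higher. The cause of these changes was not tested. The GC correction moved the median of all probes to -0.24 in the control and -0.31 in the knockdown clones, and the median of the 48 genes relative to it was -0.58 and -0.50. Quantile normalization moved the former to -0.20, and the percentile over detected probes moved the latter to 0.06.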
